A study of Mus musculus with 22 samples.

Results

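The cytosolic ribosomal protein genes were followed across lung RNA of BALB/c mice in 22 libraries. Members were the rows of the deposited gene table whose symbol begins with Rpl or Rps and a digit, together with Rplp0, Rplp1, Rplp2 and Rpsa. Of 100 rows that begin this way, 10 Rps6k kinase genes and 2 rows named as pseudogenes were left out, which leaves 88 members of 20938 genes. By name, 43 members encode proteins of the large subunit, 31 encode proteins of the small subunit and 3 encode the stalk proteins. A further 10 are paralogs or retrocopies (copies of a gene made from its mRNA), and Rps19bp1 matches the pattern but encodes a protein that binds Rps19 and is not part of the ribosome. The rule misses some genes, such as Fau and Rack1, which encode ribosomal proteins under other names.

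In all 6 groups the mice (labelled BABL/c) received a sensitizing injection into the peritoneum when 49 days old and a boost at 63 days, and aerosols began at 70 days. The aerosol was phosphate-buffered saline (PBS), methacholine (MCh), a drug that constricts the airways, or ovalbumin (OVA), an egg-white protein used as allergen. A short protocol gave it on 3 consecutive days and a long protocol 3 times a week for 4 weeks, and each protocol held 3 PBS, 4 MCh and 4 OVA libraries. Sample titles call the PBS and MCh animals normal and the OVA animals asthmatic, and they give 4 days for the short MCh group where the treatment text gives 3. The series text speaks of tracheal tissue and the samples are labelled lung. The markers of alveolar type 2 cells summed to at least 11600 FPKM in each library, while 4 cartilage markers summed to at most 0.515 FPKM. FPKM scales the fragments of a gene by transcript length and by library size.

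Each ribosome carries a single copy of most of these proteins, so a cell makes them in matched amounts. Their mRNAs are short, abundant and stable, and most begin with a run of pyrimidines, the 5′ terminal oligopyrimidine (TOP) motif, through which growth signals set their translation. Output rises in cells that grow and divide, as lymphocytes and macrophages do in an inflamed lung.

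All 88 members have a position in the GENCODE annotation of GRCm38 (mm10), spread over 19 chromosomes. The median transcript length of the 86 members with a known length was 831.5 bases, against 2972 bases for other genes with a mean of at least 1 FPKM. The deposited gene values carry a constant for each gene whose origin is not given in the sources used here, so levels of different genes are compared by the sum of a gene's transcript FPKM. On that scale the 77 subunit and stalk genes had means from 68.89 to 1203 FPKM over the libraries, with a median of 423.2 FPKM. Of the 200 genes with the highest transcript sums, 65 were members. The highest were Rplp1 of the stalk at 1203 FPKM, Rpl41 at 1112, Rps12 at 1055 and Rpl10 at 1042. Rps15a, at 68.89, and Rps20, at 98.18, were the lowest subunit genes, and both are annotated with unusually long transcripts. At the other end, Rpl10l, the testis-expressed copy of Rpl10, was listed at 0 in each of the 22 libraries, and the muscle-expressed Rpl3l reached a mean transcript sum of 0.2469 FPKM. The steps between low FPKM values put 1 FPKM on 1 kilobase at 15.1 to 25.1 fragments per library, so the median subunit gene rested on 4260 to 16900 fragments per library and counting error is small beside the spread between libraries.

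Because the mRNAs are short, each library was first examined for a trend with transcript length among other genes. The trend is Spearman's rho, over 12629 genes that are no members, between transcript length and a gene's log2 FPKM in the library minus its mean over all libraries. A negative value means that short transcripts are high in the library. In short PBS replicates 1 to 3 rho was -0.0367, 0.269 and 0.303, and in the 4 short OVA libraries it was -0.519, -0.436, -0.519 and -0.487. Short MCh replicates 1 to 3 had -0.0252, 0.153 and 0.279, while replicate 4 had -0.690, the most negative of all libraries. In the long protocol rho ran from 0.389 to 0.451 for PBS, from 0.0429 to 0.513 for MCh and from 0.296 to 0.414 for OVA. The short OVA group and short MCh replicate 4 thus stood apart from the other libraries before any ribosomal protein gene was counted. Long MCh libraries a and c and short MCh replicate 1 also listed more genes at 0 than the others. These 3 and short MCh replicate 4 had the lowest array weights, a limma estimate of how closely a library follows its group.

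The summed FPKM of the members followed the same split. It was 35862, 32836 and 29804 in short PBS and 61479, 52709, 50248 and 49250 in short OVA. Short MCh gave 38045, 32225, 30995 and 70098. Every short OVA library lay above every short PBS library, and the highest value of the study was that of short MCh replicate 4. The long PBS libraries were close together at 25246, 25407 and 25374, and the long OVA libraries gave 28854, 24914, 24718 and 27006, so that those 2 groups overlapped. Members held 5.06% to 12.1% of all gene FPKM in a library, a share that carries the constant of each gene and so is no share of expression. The mean sum in short OVA was 1.627 times that in short PBS, and 1.636 times with transcript sums.

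**Figure D1:**
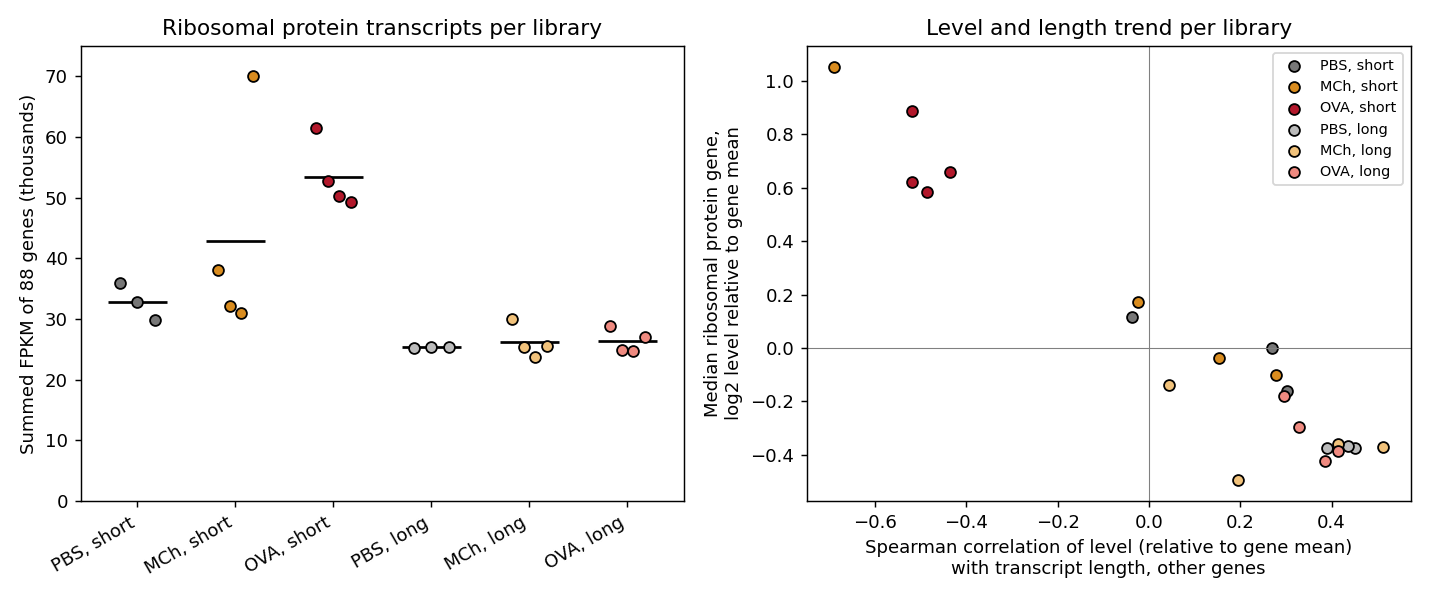
Left, the summed FPKM of the ribosomal protein genes in each library (points) by group, with the group mean as a line; right, the median log2 deviation of the members from their own means against the library's rho with transcript length among other genes. The 4 short OVA libraries and short MCh replicate 4 have both the highest sums and the most negative rho.

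After 3 days of allergen the ribosomal protein genes rose together. Of the 87 members tested, 68 were higher and 0 were lower in OVA than in PBS lungs (limma, adjusted p under 0.05), against 12.4% of all 15682 tested genes higher and 11.7% lower. The median log2 fold change of the members was 0.68, and that of all genes was -0.06. By role, 2 of 3 stalk genes, 35 of 43 large subunit genes, 27 of 31 small subunit genes and 4 of 9 paralogs and retrocopies were higher. In 81 members every OVA library lay above every PBS library, which held for 23.2% of all tested genes. In bulk lung RNA a change in the number of cells of a type and a change in RNA per cell cannot be told apart.

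The stalk is the flexible arm of the large subunit that recruits elongation factors. Rplp0, its base (chromosome 5, 115559467 to 115563727), was at 1097, 1183 and 929.2 FPKM in short PBS and at 2488, 2038, 1938 and 2066 in short OVA. The groups did not overlap, and Rplp0 rose by 1.0 ± 0.20 (log2 fold change ± SE, adjusted p = 0.0014). Rplp1, one of the acidic proteins bound to that base, was at 164.4, 132.3 and 122.6 FPKM in PBS and at 304.0, 248.0, 248.9 and 230.1 in OVA, a rise of 0.88 ± 0.21 (adjusted p = 0.00444). Its partner Rplp2 stood at 44.57, 43.64 and 44.81 FPKM in PBS and at 63.49, 50.22, 50.91 and 49.12 in OVA. The Rplp2 groups did not overlap either, but its difference of 0.26 ± 0.14 did not pass the test (adjusted p = 0.208), and its 3 PBS values were the least spread of the stalk genes. The differences between the 3 stalk genes were not tested.

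Among large subunit genes the largest rise was that of Rpl41, which encodes the shortest ribosomal protein (chromosome 10, 128548114 to 128549305). It was at 340.6, 327.5 and 289.7 FPKM in short PBS and at 821.3, 627.4, 663.2 and 651.8 in short OVA, a rise of 1.11 ± 0.21 (adjusted p = 0.000707). Rpl39, a small protein of the exit tunnel, rose by 0.98 ± 0.24 (adjusted p = 0.0063), and Rpl35, which lies near the tunnel's exit, by 0.96 ± 0.23 (adjusted p = 0.00561). Rpl3, a core protein near the peptidyl transferase centre, moved less: its libraries were at 332.3, 324.3 and 299.8 FPKM in PBS and 528.9, 448.8, 466.3 and 440.6 in OVA, a rise of 0.56 ± 0.17 (adjusted p = 0.0192). Rpl11 and Rpl5 form, with the small ribosomal RNA of the large subunit, the particle that can bind Mdm2 and so stabilise p53. Rpl11 rose by 0.81 ± 0.20 (adjusted p = 0.00706), while the difference of Rpl5 was 0.47 ± 0.17 and lay just past the threshold (adjusted p = 0.0508). Over the 43 large subunit genes the log2 fold change ran from 0.34 to 1.11, so that all were positive.

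Among small subunit genes Rpsa, which is also known as the laminin receptor (chromosome 9, 120127689 to 120132369), was at 105.4, 111.1 and 84.9 FPKM in short PBS and at 224.8, 187.0, 194.8 and 188.0 in short OVA. The groups were far apart and Rpsa rose by 0.99 ± 0.19 (adjusted p = 0.000778). Rps2, a protein of the mRNA entry region, was at 240.5, 234.9 and 211.1 FPKM in PBS and at 407.9, 337.4, 357.5 and 372.8 in OVA, a rise of 0.69 ± 0.13 (adjusted p = 0.000783). Rps27a, made as a fusion with ubiquitin, rose by 0.89 ± 0.21 (adjusted p = 0.00383) and Rps29, a zinc-binding protein, by 0.90 ± 0.20 (adjusted p = 0.00231). Rps6, the substrate of the S6 kinases downstream of mTOR, was at 107.6, 103.5 and 93.48 FPKM in PBS and at 165.3, 146.2, 139.5 and 143.2 in OVA. It rose by 0.55 ± 0.18 (adjusted p = 0.0339), a call that ended when 6 of the 7 libraries were left out in turn. Rps14 and Rps19, whose human counterparts are linked to anaemias of ribosome failure, rose by 0.73 ± 0.20 (adjusted p = 0.014) and 0.60 ± 0.20 (adjusted p = 0.0365). All 31 small subunit genes had positive log2 fold changes.

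The 19 members that did not pass fall into a few kinds. Rps27, Rps27rt and Rpl37rt had standard errors of 2.60, 1.27 and 1.53, far above those of other members, and are taken up below. Rpl3l, Rpl39l and Rpl32l are barely expressed. Most others had positive differences below the median member: Rpl9 and Rpl14 were at 0.34 ± 0.18 and 0.38 ± 0.18, Rpl8, a protein of the peptidyl transferase centre, at 0.42 ± 0.18 and Rps9, which helps to keep decoding accurate, at 0.43 ± 0.18, while Rpl21, Rps15, Rpl28 and Rps10 lay between 0.44 and 0.54. Rpl34, at 138.5, 98.26 and 95.84 FPKM in short PBS and 250.6, 177.3, 211.8 and 180.4 in short OVA, differed by 0.89 ± 0.37 (adjusted p = 0.0832), with the largest standard error of any member outside the copies and the barely expressed genes. These genes are named because they missed the call.

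Single libraries moved the count of called members. It was 20 without short PBS replicate 3, where 7.42% of all genes were higher. Without short PBS replicate 2 it was 44, where 1647 of all 15682 genes were higher. It was 40 without short OVA replicate 1, and 57 to 65 without each of the other 4 libraries. Of these, the fit without short PBS replicate 1 gave 60, where 1500 of all genes were higher. The median fold change lay between 0.62 and 0.75 in all 7 fits. Of the 33 members named by rule that were called, 14 kept the call in all 22 alternative fits, among them Rplp0, Rplp1, Rpsa, Rps2, Rpl41, Rpl39, Rpl35, Rps27a and Rps29.

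**Figure D2:**
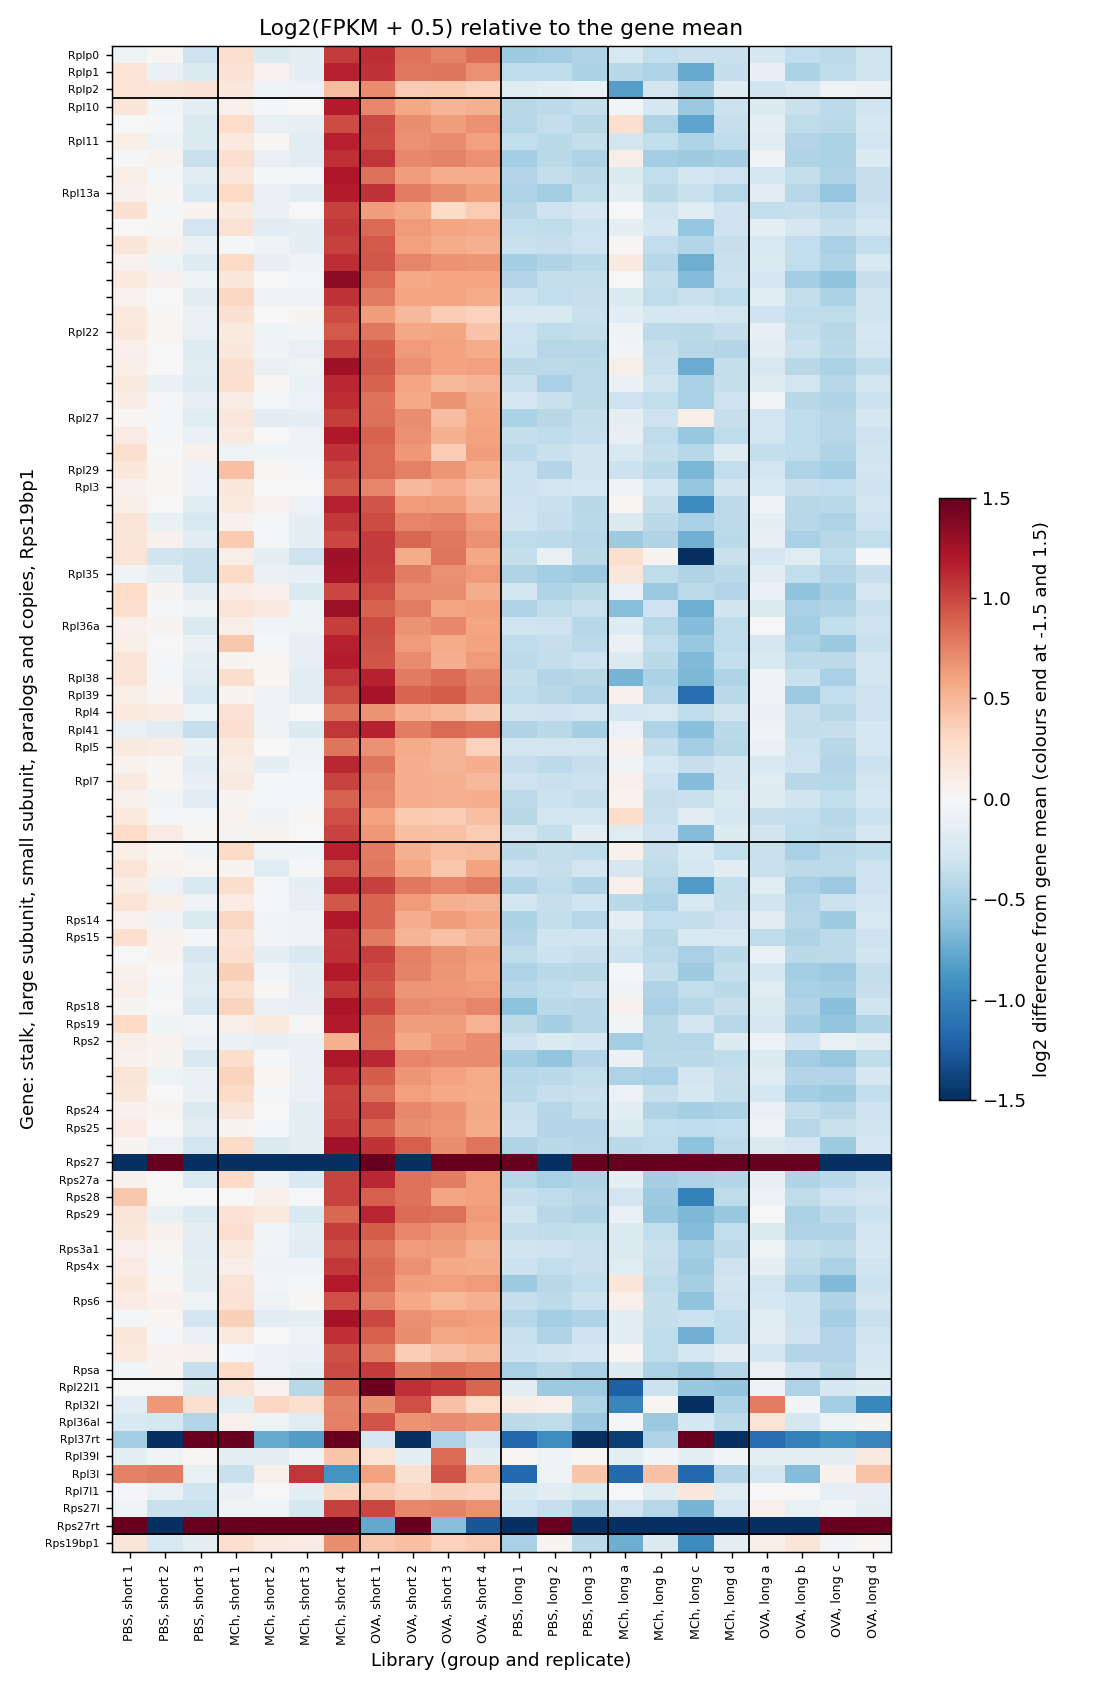
Each row is 1 of the 87 tested ribosomal protein genes and each column 1 of the 22 libraries; the colour gives log2(FPKM + 0.5) minus the gene's mean over all libraries, and the rows of members named by rule carry their symbol. Nearly all rows are high in the 4 short OVA libraries and in short MCh replicate 4, and the exceptions are the rows of Rps27, Rps27rt, Rpl37rt and the barely expressed paralogs.

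Other short transcripts moved the same way in this comparison. Among 2624 genes of 481 to 1759 bases that are no members, 27.1% were higher in short OVA, with a median log2 fold change of 0.32. When other genes were split into 5 equal classes by length, 28.2% of the shortest class were higher (median 0.33), while in the longest class 3.09% were higher and 29.6% were lower (median -0.45). The members' median of 0.68 was thus above that of other genes in this length range, and no test was made of that gap. The other genes were not matched in length to the members, whose median length was 831.5 bases. Among the 76 subunit and stalk genes with a usable length, the fold change showed little relation to the gene's own length (rho -0.123 across genes, which are not independent).

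When each library's trend with length was removed from all genes, 32 of 85 members were higher and 0 lower in short OVA, against 12% of 15559 tested genes higher and 9.26% lower. All 32 were among the 68, and the median member was at 0.34. Rpsa was then at 0.91 ± 0.17 (adjusted p = 0.000787), Rplp0 at 0.78 ± 0.16 (adjusted p = 0.00149), Rpl41 at 0.59 ± 0.11 (adjusted p = 0.00074) and Rps2 at 0.37 ± 0.07 (adjusted p = 0.000777). Rps6 was at 0.19 ± 0.12 and no longer called (adjusted p = 0.307). Rps15a and Rps20, singled out after their values were seen, had the largest folds of the called members after the removal, 1.13 and 1.01. Their lengths in the annotation are 5179 and 3706 bases, the longest of all members. Other genes in the length classes of Rps15a and Rps20 had negative medians, -0.45 and -0.22, so the removal raised these 2 folds. The 2 folds thus depend on the annotated lengths. Less was removed from Rpsa and Rplp0, annotated with 1938 and 1358 bases, than from Rpl41 with 437. The ratio of summed FPKM between short OVA and short PBS fell from 1.627 to 1.314. How much of the difference is due to the length trend and how much to the genes cannot be told apart, since the trend and the groups move together.

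**Figure D3:**
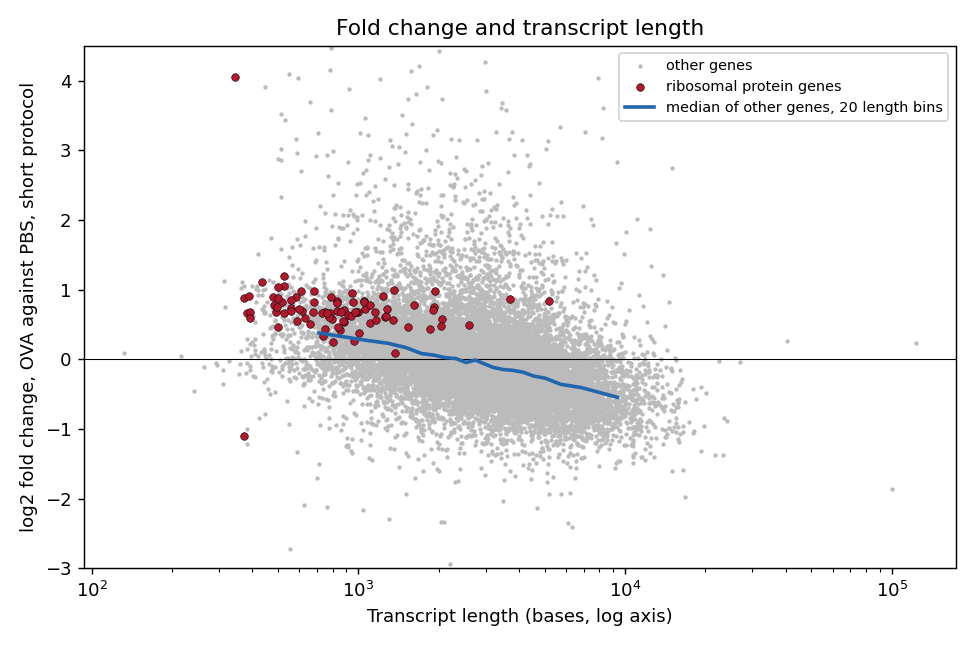
The log2 fold change of OVA against PBS in the short protocol (vertical) against transcript length in bases (horizontal, log axis), with the ribosomal protein genes marked among all other genes. Short transcripts lie above 0 and long ones below, and most members lie above the median of other genes of their length.

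Markers of some other cells were also higher in short OVA, where 12.4% of all tested genes were called higher. All 5 markers of cycling cells were higher in short OVA than in short PBS: their summed level was 7.97 to 27.5 FPKM in PBS, 8.2 to 36.1 in MCh and 63.5 to 79.9 in OVA. Of 5 macrophage markers 4 were higher, with sums of 89.9 to 117 FPKM in PBS and 365 to 512 in OVA. None of these markers was at 0 throughout. Short MCh replicate 4, with the highest sum of ribosomal protein genes, had cycling markers at 10.8 FPKM, inside the PBS range, and macrophage markers at 166 FPKM, above PBS and below OVA. Alveolar type 2 markers summed to 12600 to 14600 FPKM in short PBS and 18000 to 19600 in short OVA. In short MCh replicate 4 they were at 23300 FPKM. T cell sums overlapped, at 12.3, 43.6 and 15.4 FPKM in short PBS and 32.3 to 47.8 in short OVA. B cell sums did too, at 25.2, 161 and 20.5 in short PBS and 67.7 to 115 in short OVA. Both overlaps came from short PBS replicate 2 alone. Club and ciliated sums also overlapped, with lower medians in short OVA. The part of these cells in the rise of the ribosomal protein genes was not tested.

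The MCh aerosol alone gave no call. In MCh against PBS of the short protocol 0 of 87 members were called by limma, against 0.00638% of all genes higher and 0% lower; 3 members had an unadjusted p under 0.05, all higher. The median log2 fold change was 0.30 and 84 members were positive, but this rested on replicate 4: without it the median was 0.03. Short MCh replicate 4 lay above every short PBS library for 83 of 84 members compared (all tested members but Rps27, Rps27rt and Rpl37rt), replicate 1 for 52, replicate 2 for 4 and replicate 3 for 2. Every short MCh library lay above every short PBS library for 1 member, Rpl36al, and below for 0, against 3.24% and 5.52% of all genes. Rplp0 shows the part of replicate 4: its 4 short MCh libraries were at 1379, 1000, 1049 and 2401 FPKM, with only the last in the range of the OVA libraries.

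Against MCh, OVA of the short protocol gave 14 members higher and 0 lower, with 9.37% of all genes higher and 5.82% lower. The median member fold change was 0.40, and 0.22 with the length trend removed. The called members were Rplp0 of the stalk; Rpl32, Rpl38, Rpl39 and Rpl41 of the large subunit; Rps2, Rps27, Rps27a, Rps29 and Rpsa of the small subunit; and the paralogs Rpl22l1, Rpl36al, Rpl7l1 and Rps27l. Over the 87 members the groups did not overlap for 3 higher ones, Rpl22l1, Rps2 and Rps27, and for 0 lower ones, against 11.8% and 6.3% of all genes. Rps2 was at 212.5, 208.1, 211.8 and 329.4 FPKM in MCh and differed by 0.64 ± 0.12 (adjusted p = 0.00083). Without short MCh replicate 4 the count was 81 higher and 0 lower, with 14.6% of all genes higher and 16.3% lower, and the median was 0.67. Without each other library in turn the count was 2 to 10, and it was 2 without short MCh replicate 2, replicate 3 or short OVA replicate 1. Without short MCh replicate 1 it was 5 of 87, where 1419 of all 15682 genes were higher, a larger share than that of the members. Only Rpl22l1 and Rps2 of 13 named members kept the call in all 23 alternative fits.

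After 4 weeks the difference between OVA and PBS was small. With limma 0 members were called, against 1.03% of all genes higher and 0.153% lower; 1 member, Rpl36al, had an unadjusted p under 0.05. The median log2 fold change was 0.05, and 65 of 87 were positive. With the length trend removed 43 of 85 were positive, and without long OVA library a 43 of 87 were. Rplp0 was at 796.8, 805.8 and 847.7 FPKM in long PBS and at 962.2, 894.2, 880.5 and 937.3 in long OVA. Those Rplp0 values do not overlap, but the difference of 0.17 ± 0.20 did not pass the test (adjusted p = 1). Groups did not overlap for 7 members, all higher in OVA (Rpl35, Rpl36al, Rpl41, Rpl7l1, Rplp0, Rps27l and Rpsa), a share below the 9.95% of all genes.

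In MCh against PBS of the long protocol 0 members were called, against 0.0574% of all genes higher and 0.00638% lower, and 2 had an unadjusted p under 0.05, both lower. The smallest adjusted p was that of Rplp2, at 33.98, 35.14 and 36.01 FPKM in PBS and 21.5, 31.7, 27.18 and 33.59 in MCh, a difference of -0.31 ± 0.14 (adjusted p = 0.298). The lowest of these values, 21.5, is that of long MCh library a, 1 of the 3 libraries with most genes at 0. In OVA against MCh of the long protocol 0 members were called, against 4.75% of all genes higher and 1.31% lower, and 2 had an unadjusted p under 0.05, both higher. The nearest to the threshold was Rps19bp1, the member that is no ribosomal protein, at 0.57 ± 0.19 (adjusted p = 0.0778). In MCh against PBS the long groups did not overlap for 6 members higher (Rpl27, Rpl35, Rpl6, Rplp0, Rps20 and Rps7) and 3 lower (Rpl38, Rplp2 and Rps27rt), against 2.6% and 10.5% of all genes. In OVA against MCh they did not overlap for Rps19bp1 and Rps27l, higher, and for Rpl14 and Rpl21, lower, that is 2 and 2 members against 9.6% and 4.07% of all genes.

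The PBS lungs themselves differed between protocols in direction but not by the test. From short to long PBS 0 members were called, against 0.0191% of all genes higher and 0.147% lower. The median log2 fold change was -0.36, 85 of 87 were negative and 11 had an unadjusted p under 0.05, all lower. In 75 members every long PBS library lay below every short PBS library, against 9.16% of all genes. Rpsa was at 76.92, 80.87 and 77.04 FPKM in long PBS, below the lowest short PBS value of 84.9. When the 4 libraries of low weight, none of them PBS, were left out of the fit, 55 members were called lower, where 2.51% of all genes were. Mice of the long protocol were older when the aerosols ended, and age, protocol and time of collection cannot be told apart.

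The effect of OVA was compared between protocols as an interaction, the OVA difference in the long minus that in the short protocol. With limma 0 members were called, against 0.459% of all genes higher and 1.42% lower, although the median was -0.65 and 62 members had an unadjusted p under 0.05, all negative. With the length trend removed the median was -0.34. The smallest adjusted p was that of Rps2, at -0.59 ± 0.18 (adjusted p = 0.119). In a fit of the 4 OVA and PBS groups alone 79 members were called, all lower, where 13.5% of all genes were lower, and without the 4 libraries of low weight 80 were called, all lower, where 14.2% were. None of the 4 libraries of low weight is part of this contrast. For the effect of MCh 0 members were called (0% of all genes in either direction), and 1 had an unadjusted p under 0.05.

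Rps27 encodes a zinc-binding protein of the small subunit, and Rps27rt is a copy of it in a single exon. Rps27 lies on chromosome 3 (90212522 to 90213651, minus strand) and Rps27rt on chromosome 9 (114982366 to 114982739, minus strand). Their GENCODE transcripts of 345 and 374 bases share an identical run of 341 bases, from base 5 to the end of Rps27. The first 30 bases of each are shown since they hold all that sets Rps27 apart, with bases outside the shared run in capitals.
Rps27: GCTCctttccggcggtgacgacctccctac
Rps27rt: ctttccggcggtgacgacctccctacgaga
Only the 4 capital bases of Rps27 and the A-rich end of Rps27rt differ, so few fragments can tell these genes apart.

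The deposited values of the pair switch from one gene to the other between libraries. Of their summed transcript FPKM, 10 libraries had over 90% on Rps27rt, 12 had under 10% there, and 0 lay between. In short PBS, Rps27 was at 3.152, 1158 and 2.671 FPKM and Rps27rt at 1398, 76.12 and 1144. The switch runs through the groups: 2 of 3 short PBS, 4 of 4 short MCh, 1 of 4 short OVA, 1 of 3 long PBS, 0 of 4 long MCh and 2 of 4 long OVA libraries were on Rps27rt. The summed level was far steadier, with 1402, 1234 and 1147 FPKM in short PBS, 2192, 1775, 1841 and 1686 in short OVA and 738.0 to 1044 in the long protocol. Every short OVA sum lay above every short PBS sum, and the difference of 0.57 ± 0.22 was near that of other small subunit genes but did not pass the test (adjusted p = 0.0625). The row of Rps27 alone was called higher in OVA than in MCh of the short protocol, at 7.49 ± 2.41 (adjusted p = 0.0404), while the sum of both differed there by 0.29 ± 0.20 (adjusted p = 0.37). The level of either gene alone cannot be read from its row.

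**Figure D4:**
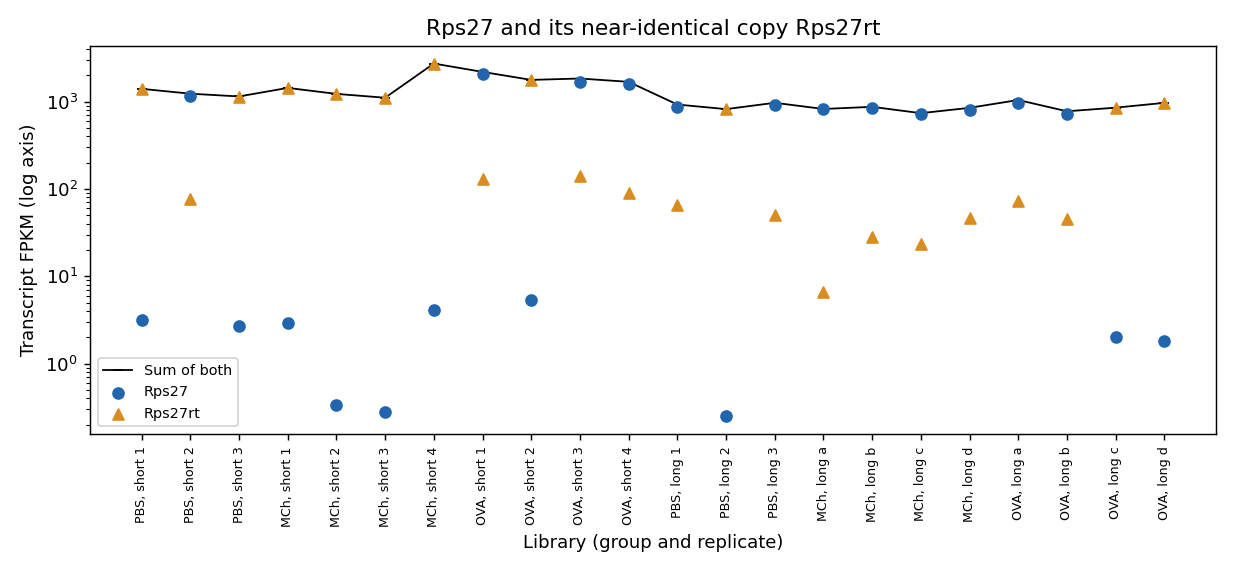
Transcript FPKM (log axis) of Rps27 (blue circles), Rps27rt (orange triangles) and their sum (line) in each of the 22 libraries. One of the genes holds nearly the whole sum in every library, while the sum itself lies between 738.0 and 2731 FPKM.

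Rpl37rt, a copy of the large subunit gene Rpl37, behaved alike on a smaller scale. It was at 40.65 FPKM in short PBS replicate 3, at 39.05 in short MCh replicate 1, at 98.48 in short MCh replicate 4 and at 40.17 in long MCh library c, and at no more than 1.307 in the other 18 libraries. The high values fall in 3 groups, and none of its comparisons passed the test. Sequence shared with other annotated genes is common among the members: of 86 with a transcript compared, 33 had more than 50% of their stretches of 75 bases also in another gene, mostly pseudogenes, and 5 had none. Rpl10 shared 91.9% of its stretches with a pseudogene, and Rpl22 shared 0.91% with one. Their levels are therefore uncertain where the counting split such reads.

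Several paralogs of ribosomal proteins are expressed beside the main gene. Rpl22l1, which can replace Rpl22, an RNA-binding protein of the large subunit with a role in T cell development, lies on chromosome 3 (28805436 to 28807424). It was at 59.56, 59.48 and 51.84 FPKM in short PBS, at 68.39, 62.14, 44.82 and 108.8 in short MCh and at 166.3, 129.1, 123.2 and 110.1 in short OVA. Each OVA library was above all others of the short protocol, and the rise over PBS of 1.19 ± 0.23 was the largest of any called member (adjusted p = 0.000891). Against MCh it was 0.95 ± 0.21 (adjusted p = 0.00398), and with the length trend removed the rise over PBS was 0.71 ± 0.16 (adjusted p = 0.00394). Rpl22 itself was at 223.6, 203.1 and 184.1 FPKM in short PBS and at 346.6, 300.0, 300.3 and 269.0 in short OVA, a rise of 0.58 ± 0.17 (adjusted p = 0.0204).

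Ratios of transcript FPKM within a library compare a paralog with its main gene, whose length differs. Rpl22l1 over Rpl22 was 0.6343, 0.697 and 0.67 in short PBS and 1.143, 1.024, 0.9768 and 0.9744 in short OVA, so that the groups did not overlap. Short MCh replicate 4, which had the strongest length trend, was at 0.6839, inside the PBS range. The part of the length trend in this ratio was not tested. For short OVA against short PBS an exact two-sided permutation test gave p = 0.05714, the smallest that 4 against 3 libraries allow. Adjusted over 18 tests of 6 pairs it was 0.2571. In the long protocol the ratio was 0.685 ± 0.094 (SD, n = 3) in PBS and 0.732 ± 0.0536 (SD, n = 4) in OVA (exact permutation p = 0.4571).

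Rps27l, a paralog of Rps27 and a target of p53, was at 138.9, 115.1 and 115.3 FPKM in short PBS and at 292.1, 240.1, 243.1 and 234.4 in short OVA, a rise of 1.03 ± 0.21 (adjusted p = 0.00115). Its ratio to the sum of Rps27 and Rps27rt was 0.0758 ± 0.00296 in short PBS (SD, n = 3) and 0.105 ± 0.00245 in short OVA (SD, n = 4), with an exact permutation p of 0.05714. Rpl36al, a copy of Rpl36a, rose by 1.05 ± 0.17 in short OVA (adjusted p = 0.000219), the smallest adjusted p of any member. Its ratio to Rpl36a was 0.470 ± 0.0138 in short PBS and 0.571 ± 0.0207 in short OVA, and it was 0.530 ± 0.0108 in long PBS and 0.687 ± 0.0314 in long OVA (SD, n = 3 and 4). In both protocols the Rpl36al groups did not overlap between OVA and PBS and the exact permutation p was 0.05714. Short MCh was at 0.5598, 0.5503, 0.5263 and 0.4645, so that replicates 1 to 3 lay above all short PBS libraries and replicate 4 among them (exact permutation p = 0.1143 against PBS). Long MCh libraries a and c were at 0.6404 and 0.7428, the second above every long OVA library, and libraries b and d at 0.5193 and 0.5627.

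The other pairs gave no such difference. Rpl7l1, whose product acts in ribosome assembly, rose by 0.49 ± 0.11 (adjusted p = 0.00221) in short OVA, while its ratio to Rpl7 was 0.0321 ± 0.000458 in PBS (SD, n = 3) and 0.0305 ± 0.00202 in OVA (SD, n = 4; exact permutation p = 0.2286). Rpl3l and Rpl39l, copies expressed in muscle and testis, stood at no more than 1.857 and 0.4821 FPKM in any library. Rpl32l differed by 0.36 ± 0.39 between short OVA and PBS (adjusted p = 0.552). Rps19bp1 was at 3.68, 2.623 and 2.852 FPKM in short PBS and at 4.377, 4.544, 4.174 and 4.297 in short OVA, a difference of 0.46 ± 0.20 that did not pass the test (adjusted p = 0.11).

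Rps24 encodes a small subunit protein whose last residues depend on the splicing of small exons (chromosome 14, 24487125 to 24496959, plus strand). At the gene level it was at 1350, 1321 and 1104 FPKM in short PBS and at 2547, 2125, 2056 and 1915 in short OVA, a rise of 0.78 ± 0.20 (adjusted p = 0.00773). Its transcripts were singled out after their values were seen. Those described here differ by an exon of 18 bases at chr14:24494052-24494069 and one of 20 bases at chr14:24495430-24495449 (GRCm38), shown whole in capitals.
18-base exon: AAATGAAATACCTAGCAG
20-base exon: TGAGTGGAGATTGGATACAG

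The transcript with neither exon held 36.5%, 44.3% and 31.3% of the Rps24 transcript FPKM in short PBS and 70.5%, 64.7%, 67.5% and 63.8% in short OVA. Short MCh was at 48.9%, 37.9%, 33.4% and 31.3%, so that OVA stood above both groups without overlap, and the last of these, replicate 4, was as low as the lowest PBS library. In the long protocol it held 39.3% ± 0.686 in PBS (SD, n = 3), 39.6% ± 3.96 in MCh and 48.5% ± 2.85 in OVA (SD, n = 4). The transcript with both exons went from 38.4% ± 4.26 in short PBS (SD, n = 3) to 20.5% ± 2.43 in short OVA (SD, n = 4). Further Rps24 transcripts are listed, whose exons were not examined. The largest of them in short PBS held 10.5% ± 1.19 there and 3.79% ± 0.878 in short OVA. On the logit scale the share of the transcript with neither exon differed between short OVA and PBS by 1.75 ± 0.38, with an unadjusted limma p of 0.000178. It did not pass over all 9958 transcripts tested (adjusted p = 1.0): 0% of transcripts were called in that comparison, and 0 of 33 transcripts of 14 members.

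The transcript with only the 20-base exon held 35.9% in short MCh replicate 4 and 39.2% in long MCh library c, against 2.03% to 8.29% in the other 20 libraries. These are also 2 of the 4 libraries with high Rpl37rt. The GENCODE model of the transcript with neither exon has a last exon of 1185 bases, where the transcripts with both or only the 20-base exon end after 71. Its share thus also depends on how reads of that longer end were assigned, which was not tested.

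**Figure D5:**
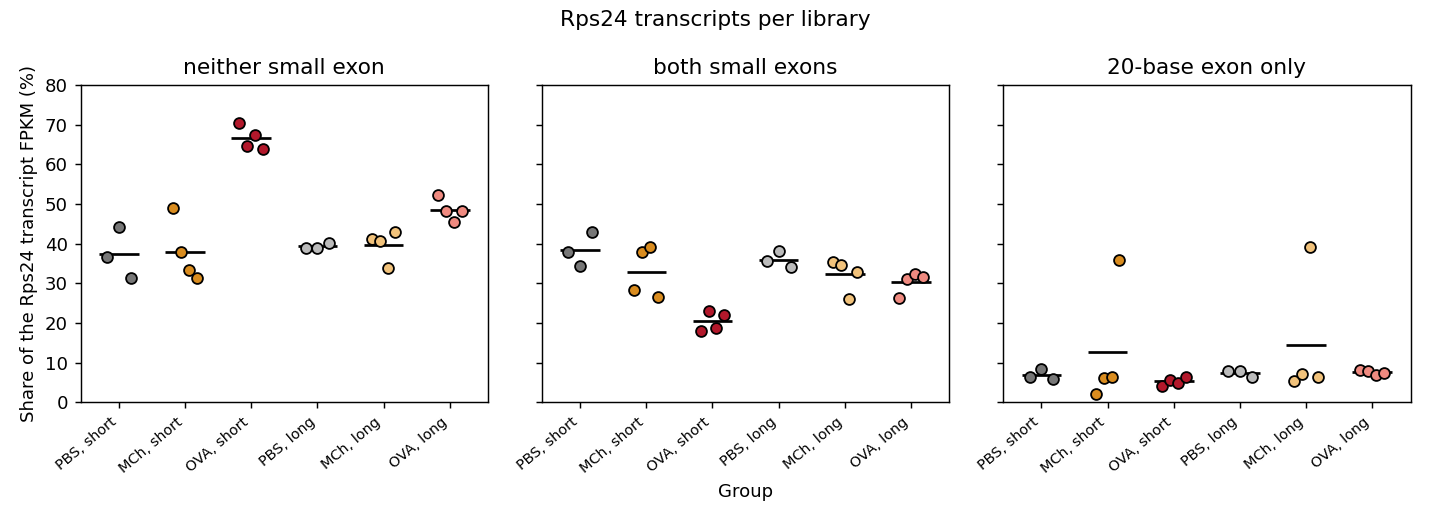
The share of Rps24 transcript FPKM (%) held by the transcripts with neither small exon, with both, and with the 20-base exon only, by group; points are libraries and lines are group means. Short OVA libraries lie at 63.8% to 70.5% in the first panel, above all others, and the last panel has 2 MCh libraries at 35.9% and 39.2%.

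The start of the mRNA is where the TOP motif lies. RefSeq (GRCm38.p6) gave start sites for 68 members in 80 windows, here the 10 bases before and 20 after the annotated start. The windows of 8 members described above are shown as examples of long and short runs, with the longest run of C or T in capitals and each such run where they tie.
Rps6 (chr4:86857348-86857377, minus strand): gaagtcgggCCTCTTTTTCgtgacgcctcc
Rps27 (chr3:90213629-90213658, minus strand): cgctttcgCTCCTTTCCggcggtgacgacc
Rps27rt (chr9:114982720-114982749, minus strand): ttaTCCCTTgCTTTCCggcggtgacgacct
Rps24 (chr14:24490668-24490697, plus strand): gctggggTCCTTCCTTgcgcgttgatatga
Rpl22l1 (chr3:28805498-28805527, plus strand): gcgcaagcccgTTCTCTTCCCacggctgca
Rps2 (chr17:24720053-24720082, plus strand): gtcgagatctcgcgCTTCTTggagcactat
Rpl36al (chr12:69184048-69184077, minus strand): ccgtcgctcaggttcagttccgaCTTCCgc
Rpl41 (chr10:128549149-128549178, minus strand): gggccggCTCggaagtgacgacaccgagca

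Rps6, Rps27, Rps24 and Rpl22l1 have a long run around or just after their annotated start. In Rps27rt a run lies before the start and an equally long one begins at it. The runs of Rps2 and Rpl36al are shorter, and in Rpl41, with the largest rise of the large subunit genes, the longest has 3 bases. A run of at least 8 C or T stood in 31.2% of the 80 member windows and in 11.2% of all 32851 windows of the same length, and a run of at least 10 in 23.8% and 4.77%. CTTTCC on the sense strand stood in 13.8% of member windows and 1.28% of all. In the wider window of 300 bases, CCGGAAG on either strand, the core of ETS factor sites, stood in 33.8% of member windows and 8.86% of all. TCTCGCGA on either strand, a palindrome of many promoters of housekeeping genes, stood in 15.0% and 0.995%. These shares describe letters in a window and say nothing of binding.

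Genes that work with the ribosomal proteins were counted from lists, to be read against the 12.4% of all genes that were higher and the 11.7% that were lower. Fau and Rack1 rose by 0.66 ± 0.23 and 0.70 ± 0.18 in short OVA against PBS, close to the members' median. Of 49 tested ribosome biogenesis genes 18 were higher and 0 lower (median 0.42), among them Nop58, a core protein of box C/D particles, by 1.02 ± 0.19 and Fbl, their methyltransferase, by 0.73 ± 0.14. Of 38 initiation factors 11 were higher and 1 was lower (median 0.18), with Eif4a1, the helicase that opens the mRNA, at 1.0 ± 0.09, and of 10 elongation and release factors 4 were higher and 0 lower (median 0.29). Of 22 regulators of TOP translation and ribosomal protein transcription 1 was higher, Myc, by 0.90 ± 0.14, and 5 were lower, among them Mtor at -0.78 ± 0.21 and Tsc2 at -0.73 ± 0.18. Mtor and Tsc2 have transcripts of 8564 and 5598 bases, in the length range where other genes were also lower.

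Other families of short transcripts moved in the same comparison. Of 71 respiratory chain subunit genes 58 were higher and 0 lower (median 0.74), and of 78 mitochondrial ribosomal protein genes 29 were higher and 0 lower (median 0.46). With the length trend removed the counts were 32 and 19 higher, where 12% of all genes were, with 0.39 as the median of the first. The respiratory chain genes and the cytosolic ribosomal protein genes thus gave like counts and medians, and no test of a difference between the families was made. None of these lists had a called gene in OVA against PBS of the long protocol.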

How the data were processed

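Lung total RNA, purified on RNeasy columns with DNase I, went into TruSeq Stranded Total RNA libraries, per the labels' protocols. FPKM values, as deposited, cover 20938 genes and 36844 transcripts. Trim Galore, STAR, DESeq2 and mm10 are named in the submitters' processing notes, and the program that gave FPKM is not given in the sources used here. Read counts were not used. Columns of long MCh and long OVA match a group but no single sample, and their libraries carry the letters a to d. Sample titles call the libraries biological replicates.

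Tests covered the 15682 genes that reach 0.1 FPKM in 3 or more libraries. Values were taken to log2(FPKM + 0.5), on which all fold changes are given and which understates those of low genes. The model had 1 coefficient for each group and used limma 3.58.1 (R 4.3.3, eBayes with trend), two-sided, with Benjamini-Hochberg adjustment over all tested genes in each of 9 contrasts; called means an adjusted p under 0.05. Contrasts share libraries. Transcript shares were tested as log2 odds by the same group model, with eBayes without trend. Steps were tested on simulated data. FPKM steps were read from 8760 genes with a single transcript; 51.7% to 69.6% of the lowest values lay within 10% of 1 or 2 fragments, so whole reads were not recovered.

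Members and lists were chosen with earlier results of these data known. Members named are those with fixed roles, the 5 highest and 5 lowest in level, the 5 with the largest change or smallest p per comparison, and those against the median direction. Alternatives were other pseudocounts, filters and scalings, array weights, transcript sums, removal of the length trend, groups alone, a replicate block and leaving out libraries. Summing Rps27 with Rps27rt and the fit of transcript shares were added after seeing the data. Some results are not reported here. Sequences are from RefSeq and GENCODE on GRCm38.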

Additional observations from a re-analysis of the deposited data

Results flagged for a closer look

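In each group of 4 libraries, the members named in the text and their paralog ratios were searched for a highest or lowest value that stands apart from the other 3 by Dixon's criterion. Of 208 groups checked 29 held such a value, where chance alone gives about 1 in 20 of independent groups. The members move together within a library, so the groups are not independent and the count cannot be judged by that share.

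Short MCh replicate 4 held 15 of them, all highest. Of the large subunit they were Rpl3 at 608.8 FPKM, Rpl7 at 640.8, Rpl10 at 1740, Rpl11 at 959.3, Rpl22 at 379.1, Rpl36a at 416.4 and Rpl39 at 229.4. Of the small subunit they were Rps2 at 329.4 FPKM, Rps4x at 1166, Rps15 at 1377, Rps19 at 582.4, Rps25 at 2403 and Rps28 at 141.3. The paralogs Rps27l at 296.7 FPKM and Rpl39l at 0.2336 complete the set. This library also had the most negative rho with transcript length, -0.690, and an array weight of 0.0834. Its part in these values was not tested.

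Long MCh library a held 6 highest values: Rps24 at 1142 FPKM, Rps25 at 990.8, Rps27a at 918.9, Rpl35 at 618.1, Rps29 at 235.2 and Rpl22 at 190.2. It is 1 of the 3 libraries with most genes at 0. Long MCh library c had Rpl37rt at 40.17 FPKM, where the other long MCh libraries had at most 1.06.

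Short OVA replicate 1 was the highest of its group in Rplp2 at 63.49 FPKM, Rps27l at 292.1, Rpl36al at 342.9 and Rps18 at 498.5, and it had the largest summed FPKM of the 4. Short OVA replicate 2 had Rps27rt at 1565 FPKM and is the single short OVA library whose summed Rps27 and Rps27rt is listed on Rps27rt. Long OVA library d had Rpl39l at 0.1028 FPKM and a ratio of Rpl39l to Rpl39 of 0.0005284, where the other 3 were at 0.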

How the results depend on the processing

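Of the values for single named genes under the alternatives, 8372 kept their side of the threshold, 341 passed it newly, 177 lost the call and 0 reversed. For OVA vs PBS in the short protocol, where 68 members were called, the count was 32 with the length trend removed (12% of all genes higher) and 20 to 65 with each library left out. It was 59 to 81 under each other alternative but the replicate block. The lowest, 59, came with quantile normalization (13.2% of all genes higher). The highest, 81, came with array weights (23.4%) and when the low-weight libraries were dropped (24%). For OVA vs MCh in the short protocol (14 called) it was 9 with median-of-ratios scaling (9.05% of all genes higher). It was 3 with groups alone (7.82% higher). It was 81 with array weights (26.5% higher) and 81 when the low-weight libraries were dropped (22.9% higher). With length trend removed and array weights it was 77 (76 higher and 1 lower, where 25.3% and 24.1% of all genes were). With a library left out it was 2 to 81. In the long protocol OVA vs PBS gave 2 calls, all higher, with array weights (6.87% of all genes higher), 2 with length trend removed and array weights (7.33%), 2 when the low-weight libraries were dropped (4.47%) and 1 with groups alone (3.75%), shares of the members below those of all genes. OVA vs MCh gave 2 with array weights (8.66% higher), 1 with transcript sums (5.33%) and with Rps27 and Rps27rt summed, 1, lower, with length trend removed (4.64% lower), 1 with length trend removed and array weights (6.78% higher), 1 when the low-weight libraries were dropped (4.19% higher), and 0 to 1 with a library left out. MCh vs PBS in the short protocol gave 1, Rplp2, lower, with length trend removed and array weights, where 1.13% of all genes were lower. PBS long vs short gave 62 with array weights, all lower (3.49% of all genes lower), 67 with length trend removed and array weights (5.86%), 2 with groups alone (0.332%) and 55 when the low-weight libraries were dropped. The OVA effect long vs short gave 79 with array weights, all lower (15.1% of all genes lower), 57 with length trend removed and array weights (13%), 79 with groups alone and 80 when the low-weight libraries were dropped. The cause of these shifts was not tested. The ratio of summed FPKM was 1.356 with quantile normalization, 1.314 with length trend removed and 1.545 to 1.706 with a library left out.

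Replicate numbers mark no shared source in the labels, and same-numbered libraries did not deviate together: r over 19 such pairs ran from -0.297 to 0.379 with a median of -0.036. With a replicate block 25 members were called higher in OVA vs PBS short, where 12.8% of all genes were and the median member was at 0.57, and 9 in OVA vs MCh short, where 11.4% were and the median was 0.40. No block could be used for the long MCh and OVA columns, which carry no replicate number of the labels.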
